A study of Homo sapiens with 6 samples.

Results

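Immediate early genes are the genes a cell transcribes first after a stimulus, from transcription factors that are already present. Here 10 of them were followed in HeyA8, an established human ovarian cancer cell line, with and without magnetic fluid hyperthermia (MFH), in which an alternating magnetic field makes magnetic nanoparticles give off heat. The members were chosen by array identifier, 1 probe for each of FOS, FOSB, JUN, JUNB, EGR1, ATF3, IER3, DUSP1, ZFP36 and KLF6, out of 20046 genes that the array annotation names. That annotation pairs each of the 10 identifiers with the gene it was chosen for, and no member was absent. Total RNA was hybridised to Illumina bead arrays, with 3 arrays of parental cells left untreated and 3 of parental cells given MFH, and 47231 probes were read on each. The temperature, the length of treatment and the time of harvest are not given in the sources used here. No array of particles without a field was analysed here. Nothing in the labels ties the replicates to separate cultures, and the spread behind each p-value is that between these arrays, which may be technical.

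As background, mitogens and stress act through MAP kinases on transcription factors such as serum response factor (SRF), CREB and the ternary complex factors, which sit on the promoters of these genes before the stimulus arrives. The FOS, JUN and ATF proteins pair through leucine zippers into AP-1 dimers, and EGR1 binds GC-rich sites through zinc fingers. DUSP1 and ZFP36 act as brakes, the first on the kinases and the second on the transcripts. Immediate early transcripts and proteins are short-lived, and heat and other stresses are known inducers of several of them.

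The upstream sequences of 6 genes are shown because these genes stood for the different patterns described below: FOS, FOSB and EGR1 were highest on MFH replicate 1, JUNB and KLF6 were lower after MFH, and IER5, a related gene, was higher. The sequences are from RefSeq on GRCh38.p14 and end at the base before the annotated start site. They hold 150 bases for each gene and 250 for IER5, a length that takes in its motif 226 bases upstream. Capitals mark the motifs searched on both strands: the CArG box bound by SRF, TGACGTCA (cyclic AMP response element), TGAGTCA or TGACTCA (AP-1), GCGTGGGCG (EGR), GAANNTTC or TTCNNGAA (a pair of heat shock element units), TGATGNAA (C/EBP-ATF), and TGACG, which lies within TGACGTCA and was added after the sequences were seen.
FOS, chr14:75278678-75278827, plus strand: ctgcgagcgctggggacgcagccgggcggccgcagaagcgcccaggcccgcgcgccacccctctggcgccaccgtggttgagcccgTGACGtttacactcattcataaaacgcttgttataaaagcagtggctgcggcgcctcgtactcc
FOSB, chr19:45467846-45467995, plus strand: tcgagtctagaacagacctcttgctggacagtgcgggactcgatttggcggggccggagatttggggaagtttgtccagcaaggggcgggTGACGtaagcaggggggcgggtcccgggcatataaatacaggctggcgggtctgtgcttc
EGR1, chr5:138465329-138465478, plus strand: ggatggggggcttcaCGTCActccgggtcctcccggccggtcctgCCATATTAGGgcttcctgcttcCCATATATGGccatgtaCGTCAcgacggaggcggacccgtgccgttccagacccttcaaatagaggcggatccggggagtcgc
JUNB, chr19:12791336-12791485, plus strand: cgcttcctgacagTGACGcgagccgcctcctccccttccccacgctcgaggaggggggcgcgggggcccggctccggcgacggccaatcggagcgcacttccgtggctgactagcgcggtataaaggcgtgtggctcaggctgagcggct
KLF6, chr10:3785210-3785359, minus strand: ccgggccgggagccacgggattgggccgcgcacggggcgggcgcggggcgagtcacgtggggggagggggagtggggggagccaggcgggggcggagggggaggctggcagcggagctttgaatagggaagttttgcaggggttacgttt
IER5, chr1:181088450-181088699, plus strand: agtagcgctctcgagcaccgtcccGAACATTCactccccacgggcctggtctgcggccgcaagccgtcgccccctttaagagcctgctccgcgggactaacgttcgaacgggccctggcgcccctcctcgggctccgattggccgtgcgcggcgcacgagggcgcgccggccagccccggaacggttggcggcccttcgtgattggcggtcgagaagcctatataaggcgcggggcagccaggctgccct

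Promoter windows of 300 bases, reaching 50 bases past the start site, were found for 9 of the 10 members, with an entry for each of 10 start sites, and none was found for IER3. CArG boxes began 105 and 83 bases upstream of EGR1, and no other member window held one; 1.29% of all 35116 windows did. TGACGTCA lay 125 bases upstream of DUSP1 and in 1.85% of all windows. The shorter TGACG was present in the windows of 6 of the 9 genes, FOS, FOSB, JUN, JUNB, EGR1 and DUSP1, and in 24.6% of all windows. GAANNTTC or TTCNNGAA lay 226 bases upstream of IER5 and 150 bases upstream of JUN, against 13.5% of all windows. IER5 was the only related gene whose matches were listed, so the other related genes that rose have no motif result here. TGATGNAA lay in 1 ATF3 window and in 3.62% of all, while AP-1 (4.95% of all) and EGR (0.795%) motifs were in no member window. A match is a description of letters and not of binding, and the absence of one covers this window only.

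The arrays were of like brightness, with median raw intensities of 102 to 127 and 41.3% to 43.6% of probes above background, taken as the mode of an array's log2 intensities plus 2 SD of the values below it. Heat shock genes checked the treatment: 8 of 9 rose, among them the inducible chaperone HSPA6 with a log2 change of 5.81 and the co-chaperone DNAJB1 with 3.14 (limma adjusted p = 4.0e-12 and 1.5e-10). Of 12 markers of the line, VIM (vimentin), KRT8, CDH2 and PAX8 were bright, with mean raw intensities of 15824, 3448, 3377 and 1914 in untreated cells. KRT7 averaged 523, and KRT18, WT1, KRT19, CD24 and EPCAM were dim, at 227, 205, 181, 175 and 123. PAX8 and KRT8 were lower after MFH (log2 changes -0.64 and -0.34, limma adjusted p = 6.3e-04 and 0.038), 2 of 10 tested markers of the line. VIM did not pass the test (log2 change 0.01, limma adjusted p = 0.96). CDH1 was below background on all 6 arrays and MUC16 was above it on 1. The leukocyte marker PTPRC was below background on every array, whereas CD68, which is not specific to leukocytes, read 1464 to 2443 and made up most of the leukocyte sum. CD14 had a log2 change of 0.55 (limma adjusted p = 0.054) and was highest on MFH replicate 1, at 222 against 125 and 133. The fibroblast marker COL1A1 was higher after MFH (0.35, limma adjusted p = 0.036). The part of these markers in the results was not tested. The summed raw intensity was 1859 to 2359 in untreated and 2005 to 3013 in MFH arrays for 5 leukocyte markers, 482 to 585 and 515 to 724 for 4 endothelial markers, and 401 to 461 and 437 to 539 for 4 fibroblast markers. MFH replicate 1 stood apart from the other MFH arrays for several of the members, so each member's result is given with and without it, and for related genes each call lost without it is named.

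After MFH, 4 of the 10 immediate early genes were lower and 0 were higher. KLF6, JUNB, IER3 and ZFP36 fell by 1.30-fold to 1.64-fold in limma at an adjusted p under 0.05. Across the array 6.58% of the 23615 tested probes were called lower and 5.70% higher. FOS, JUN, EGR1, ATF3, DUSP1 and FOSB did not pass the test, and FOSB had an adjusted p of 0.058. At an unadjusted limma p under 0.05, 1 member (FOSB) was higher and 4 were lower. At that threshold 2678 of the 23615 tested probes were higher and 3090 lower. The median log2 change of the 10 was -0.10, against -0.009 over all tested probes. Each of the 10 was brighter than background on every array and passed the filter on low values, so none was left out of the test. In a bulk measurement of this kind, fewer cells with a transcript and less transcript per cell cannot be told apart.

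**Figure D1:**
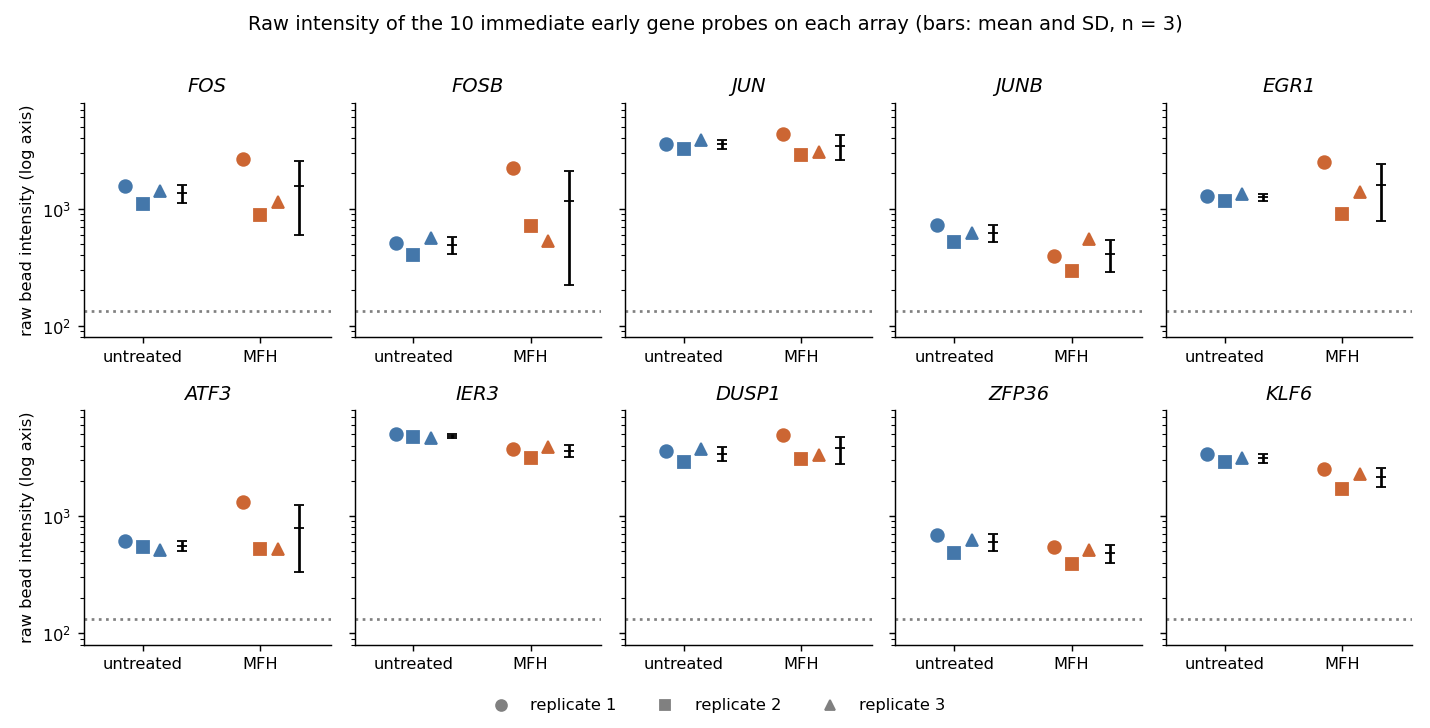
Raw bead intensity (log axis) of the 10 probes on each array, in untreated and MFH-treated cells; symbols give the replicate number, black bars the mean and SD of 3 arrays, and the dotted line the highest background limit of any array (133). FOS, FOSB, JUN, EGR1, ATF3 and DUSP1 were highest on MFH replicate 1, which also had the highest median raw intensity (127). By normalised level 5 of the 10 members were highest on that array, and 17.3% of all tested probes. The raw values of the IER3 and KLF6 groups did not overlap, and the share of all probes without raw overlap was not computed.

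The FOS subunits of AP-1 varied widely between treated arrays. FOS (probe ILMN_1669523), which does not pair with itself and needs a JUN protein as partner, had raw intensities of 1547, 1102 and 1413 in untreated cells and of 2674, 881 and 1136 after MFH, in the order of replicates 1 to 3. MFH replicate 1 was above every untreated array, and the other MFH arrays were near or below the lowest untreated one, so the groups overlapped. The normalised log2 level averaged 10.38 ± 0.06 without treatment and 10.37 ± 0.58 with MFH (SD, n = 3 arrays each). The log2 change of FOS was -0.02 ± 0.20 (SE), with a 95% interval of -0.45 to 0.42 and a limma adjusted p of 0.98. Without MFH replicate 1 it was -0.35 (interval -0.59 to -0.11, limma adjusted p = 0.068).

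FOSB (ILMN_1751607), a close relative of FOS in the AP-1 family, gave the largest positive change of the members. Its raw intensities were 512, 402 and 561 in untreated cells and 2229, 711 and 526 after MFH. Replicate 1 was far above the other treated arrays, replicate 2 was above every untreated array, and replicate 3 lay within the untreated range. Normalised levels were 8.84 ± 0.13 and 9.78 ± 0.93 (log2, SD, n = 3 arrays each). The log2 change was 0.94 ± 0.30 (SE), or 1.91-fold, with an interval of 0.29 to 1.58 (limma adjusted p = 0.058). It was 0.44 without MFH replicate 1 (limma adjusted p = 0.14) and 1.36 without MFH replicate 3 (limma adjusted p = 0.0020). With the replicate number as a block, a fit for which the arrays gave no sign of pairing, its adjusted p was 0.028.

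Of the JUN subunits, JUNB passed the test and JUN did not, and the difference between them was not tested. JUN (ILMN_1806023), the AP-1 subunit that can pair with itself as well as with FOS proteins, had raw intensities of 3582, 3223 and 3848 in untreated cells and 4377, 2883 and 3058 after MFH. The raw values of the groups overlapped, and so did the normalised levels, at 11.83 ± 0.13 and 11.65 ± 0.11 (log2, SD, n = 3 arrays each). The log2 change of JUN was -0.18 (interval -0.41 to 0.05, limma adjusted p = 0.34), and -0.23 without MFH replicate 1.

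JUNB (ILMN_2086077), a JUN relative that can restrain the activity of JUN, had raw intensities of 722, 513 and 624 in untreated cells and 393, 295 and 545 after MFH. MFH replicates 1 and 2 were well below the untreated arrays and replicate 3 was close to them. The raw values of the groups overlapped, while the normalised levels, at 9.19 ± 0.07 and 8.48 ± 0.44 (log2, SD, n = 3 arrays each), did not. JUNB fell by 0.71 on the log2 scale, a log2 change of -0.71 ± 0.17 (SE) and the largest fall of the members (limma adjusted p = 0.011). The call was lost without MFH replicate 1 (log2 change -0.56, limma adjusted p = 0.055) and without MFH replicate 2 (-0.60, limma adjusted p = 0.060). Without MFH replicate 3 the change was -0.97 (limma adjusted p = 8.9e-05).

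EGR1 (ILMN_1762899), a zinc finger factor induced by growth factors and stress, showed the same unevenness among treated arrays as FOS. Its raw intensities were 1270, 1156 and 1331 in untreated cells and 2484, 906 and 1394 after MFH. Replicate 1 was the highest array, replicate 2 the lowest, and replicate 3 lay just above the untreated range. Normalised levels were 10.28 ± 0.13 and 10.44 ± 0.46 (log2, SD, n = 3 arrays each). The log2 change of EGR1 was 0.16 (interval -0.21 to 0.53, limma adjusted p = 0.65), and without MFH replicate 1 it was -0.08 (interval -0.37 to 0.22). This is the gene whose window above carries the 2 CArG boxes.

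ATF3 (ILMN_2374865), a stress-inducible member of the ATF family that pairs with JUN proteins, was raised on 1 treated array. Its raw intensities were 619, 540 and 516 in untreated cells and 1308, 529 and 524 after MFH, so that replicates 2 and 3 lay within the untreated range. The log2 change was 0.33 (interval -0.11 to 0.76, limma adjusted p = 0.37). Without MFH replicate 1 it was 0.01 (interval -0.27 to 0.30, limma adjusted p = 0.97). The array carries a further pair of ATF3 probes, ILMN_1661109 and ILMN_1791346, which read 89 to 112 and 94 to 109 over the 6 arrays, close to background, and did not pass the filter on low values.

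KLF6 (ILMN_1735014), a zinc finger factor of the Krüppel-like family, was lower on every treated array. Its raw intensities were 3405, 2875 and 3121 in untreated cells and 2516, 1714 and 2308 after MFH, and every treated array was below every untreated one. Normalised levels were 11.61, 11.76 and 11.57 in untreated cells and 10.93, 10.92 and 11.14 after MFH (log2). KLF6 had a log2 change of -0.65 ± 0.11 (SE), 1.57-fold lower after MFH (limma adjusted p = 9.8e-04), and -0.62 without MFH replicate 1 (limma adjusted p = 0.0053). It was past the threshold under all 16 alternative fits, with log2 changes of -0.72 to -0.59.

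IER3 (ILMN_1682717), an early response protein that affects cell survival, had raw intensities of 5018, 4744 and 4648 in untreated cells and 3771, 3120 and 3900 after MFH. Again the groups did not overlap. Normalised levels were 12.28 ± 0.20 and 11.74 ± 0.17 (log2, SD, n = 3 arrays each). The log2 change of IER3 was -0.54 ± 0.12 (SE), or 1.45-fold lower (limma adjusted p = 0.010). Without MFH replicate 1 it was -0.45 (limma adjusted p = 0.045), and with median scaling in place of quantile normalization the call was lost, at 0.054.

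Of the members that act as brakes, ZFP36 was lower and DUSP1 did not pass the test. ZFP36 (tristetraprolin, ILMN_1720829), which binds AU-rich elements and speeds the decay of the transcripts that carry them, had raw intensities of 693, 488 and 630 in untreated cells and 545, 390 and 518 after MFH. The raw values overlapped, while the normalised levels, at 9.15 ± 0.07 and 8.77 ± 0.11 (log2, SD, n = 3 arrays each), did not. Its log2 change was -0.38 ± 0.10 (SE), or 1.30-fold lower (limma adjusted p = 0.026). This call was lost under 6 of 16 alternative fits, with log2 changes of -0.45 to -0.33 over all 16; without MFH replicate 1 the change was -0.34 (limma adjusted p = 0.083). DUSP1 (ILMN_1781285), a nuclear phosphatase that switches off MAP kinases, had raw intensities of 3628, 2883 and 3755 in untreated cells and 4934, 3108 and 3323 after MFH. The groups overlapped, the log2 change was 0.01 (interval -0.21 to 0.23, limma adjusted p = 0.98), and it was -0.06 without MFH replicate 1.

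**Figure D2:**
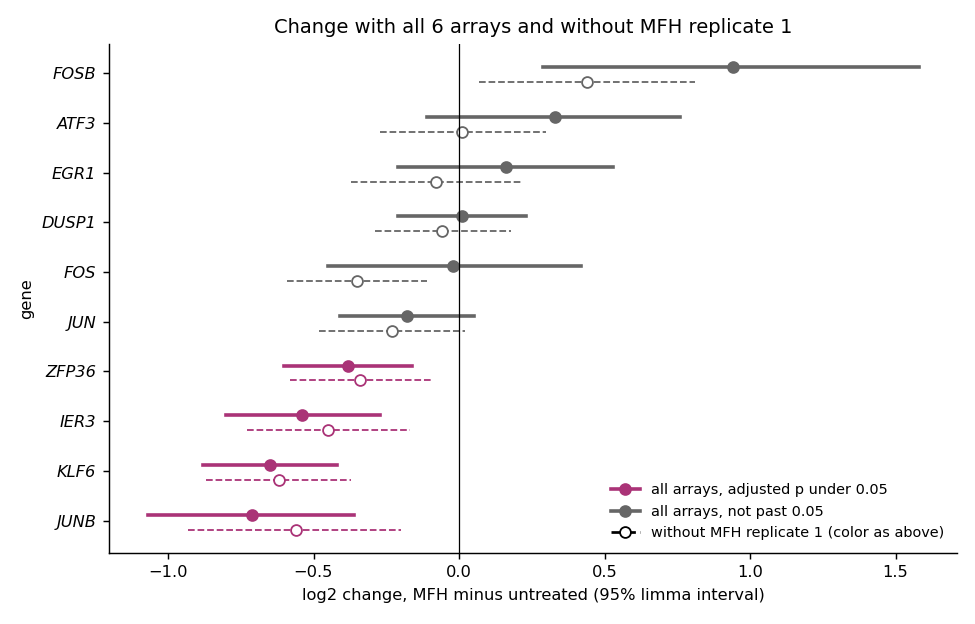
Log2 change (MFH minus untreated) of each member with its 95% limma interval; filled points use all 6 arrays, open points leave out MFH replicate 1, and purple marks an adjusted p under 0.05 with all arrays. The intervals of KLF6, JUNB, IER3 and ZFP36 lie below 0 in both fits, and that of FOSB lies above 0 in both. The FOSB estimate moves from 0.94 to 0.44, and the FOS interval lies below 0 only without MFH replicate 1. The intervals are not adjusted for the number of probes. Without that array JUNB, ZFP36 and FOSB had limma adjusted p-values of 0.055, 0.083 and 0.14.

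Without MFH replicate 1, limma called 2 of the 10 members lower, KLF6 and IER3, and 0 higher, where 5.27% of all tested probes were called lower and 4.50% higher. With all arrays, the normalised levels of the groups did not overlap for 4 members, the same 4 that were called, and for 28.7% of all tested probes. Set against the mean of the untreated arrays, MFH replicate 1 was 1.57-fold higher for FOS, 3.80-fold for FOSB, 1.55-fold for EGR1 and 1.93-fold for ATF3. MFH replicate 2 was 0.744, 1.73, 0.822 and 1.11 times that mean for the same genes, and MFH replicate 3 was 0.829, 1.07, 1.09 and 0.920 times. The difference of MFH replicate 1 from the mean of the other MFH arrays was 1.00 for FOS, 1.48 for FOSB, 0.71 for EGR1 and 0.94 for ATF3 (log2). Of all tested probes, 0.110%, 0.0339%, 0.296% and 0.136% had a higher such difference. For the genes called lower it was -0.44 for JUNB, -0.28 for IER3, -0.12 for ZFP36 and -0.10 for KLF6. Of all tested probes, 98.6%, 93.3%, 75.7% and 70.8% had a higher difference. MFH replicate 1 had the lowest normalised level of the treated arrays for JUNB, IER3 and ZFP36. Its margin from MFH replicate 2 was small for JUNB (8.19 against 8.27) and ZFP36 (8.69 against 8.72). KLF6 was lowest on MFH replicate 2, at 10.92 against 10.93 on replicate 1. By raw intensity, MFH replicate 2 was the lowest treated array for JUNB, IER3, ZFP36 and KLF6. The values for MFH replicate 1 describe 1 array chosen after it was seen to stand apart, and no test of it was made. Of the heat shock genes, DNAJB1 read 19156, 20101 and 23450 on MFH replicates 1 to 3, BAG3 16836, 14996 and 18496, and HSPA6 22277, 18139 and 14131, so the array was lowest of the 3 for the first and highest for the last. Median raw intensity was 127 on MFH replicate 1, 102 on replicate 2 and 123 on replicate 3; the part of this in the result was not tested.

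**Figure D3:**
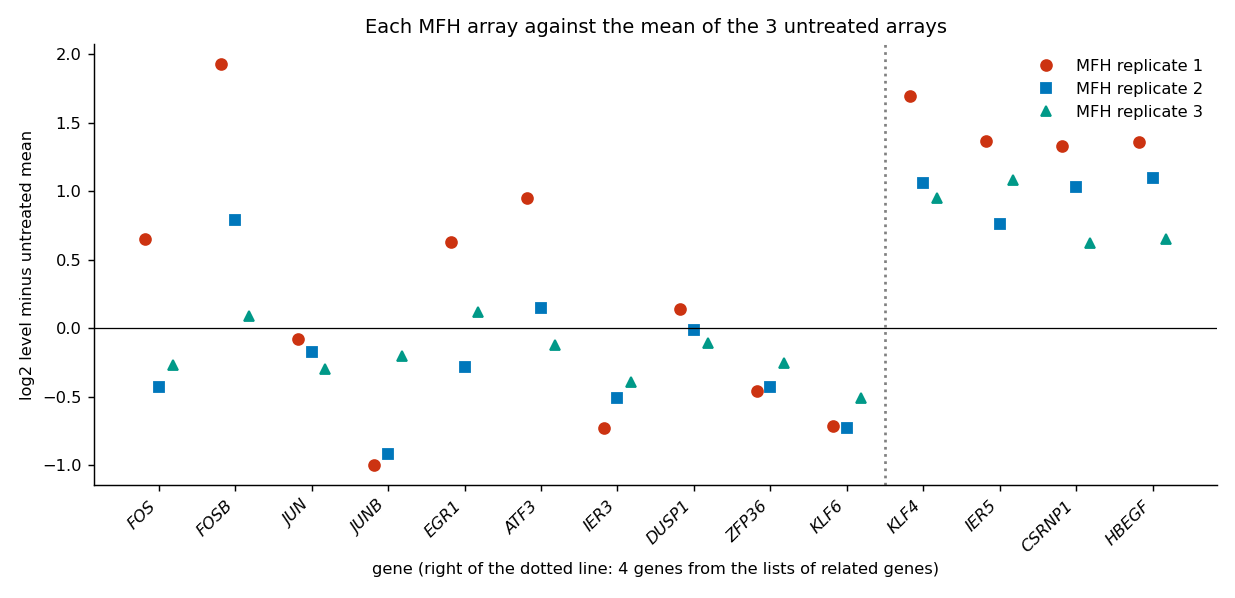
Log2 level of each MFH array minus the mean of the 3 untreated arrays, for the 10 members and, right of the dotted line, for 4 genes from the lists of related genes. MFH replicate 1 lies above the other 2 for FOS, FOSB, EGR1 and ATF3 and also for KLF4, IER5, CSRNP1 and HBEGF; all 3 MFH arrays lie above 0 for the last 4 and for FOSB, which is at 0.09 on MFH replicate 3.

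Related genes were followed in 7 lists that held 91 genes, of which 81 had a probe and 73 were tested, each by the probe with the highest mean level. Of the 73, 10 rose, 11 fell and 52 did not pass the test, where 5.70% of all tested probes were called higher and 6.58% lower. Without MFH replicate 1, 9 rose and 11 fell, beside 4.50% and 5.27% of all tested probes. The lists were chosen with earlier results of these data known, and no list was tested against these shares. The heat shock list described above was the eighth. Of the 21 genes called, 18 were also called without MFH replicate 1, and ATF2, CITED2 and SPRED2 were not. With median scaling 14 of the 21 lost their call.

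The other immediate early transcription factors and nuclear proteins held the largest rises, with 4 of 13 tested genes higher and 2 lower and a median log2 change of 0.05. KLF4, a zinc finger factor related to KLF6, had raw intensities of 580, 446 and 556 in untreated cells and 2053, 919 and 988 after MFH. Every treated array was above every untreated one, and KLF4 rose 2.36-fold (log2 change 1.24 ± 0.16 SE, limma adjusted p = 1.1e-04). IER5, an early response protein that is known to bind the heat shock factor HSF1, rose from 1338, 986 and 1245 to 3806, 1744 and 2545, or 2.10-fold (limma adjusted p = 1.1e-04). CSRNP1, a nuclear protein rich in cysteine and serine, rose 1.99-fold (limma adjusted p = 5.9e-04). Without MFH replicate 1 the log2 changes of these 3 genes were 1.00, 0.92 and 0.82, all at a limma adjusted p of 0.0024 or less. CITED2, a partner of the CBP and p300 coactivators, rose 1.36-fold (limma adjusted p = 0.026), a call lost without MFH replicate 1 (0.10). KLF2 fell by 0.42 and MYC by 0.35 on the log2 scale (limma adjusted p = 0.022 and 0.040). KLF2 lost its call under 4 of 16 alternative fits, among them without MFH replicate 2 and without untreated replicate 3, and MYC under 8, among them without any single array other than MFH replicate 1. HES1, a Notch target, read 470, 311 and 427 in untreated cells and 651, 219 and 288 after MFH, again high on replicate 1. Its log2 change was -0.30 (limma adjusted p = 0.47), and -0.67 without that array (limma adjusted p = 0.0035).

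Among other AP-1 and ATF subunits, 3 of 10 tested genes were lower, 0 were higher and the median log2 change was -0.12. At an unadjusted limma p under 0.05, 1 was higher and 4 were lower, beside 2678 and 3090 of all 23615 tested probes. BATF3, a partner of JUN proteins, read 348, 286 and 337 in untreated cells and 213, 188 and 240 after MFH, without overlap, and fell 1.70-fold (limma adjusted p = 5.4e-04). FOSL1, the FOS relative FRA-1, fell 1.40-fold (limma adjusted p = 0.0043). ATF2, which dimerises with JUN, fell 1.29-fold (limma adjusted p = 0.043), and 12 of 16 alternative fits did not call it, the one without MFH replicate 1 among them (0.088). In the EGR family and its NAB co-repressors, NAB1 rose 1.36-fold (limma adjusted p = 0.012) and was the 1 gene called of 3 tested. EGR3 read 105, 88 and 112 in untreated cells, not well above background on any array, and 273, 110 and 127 after MFH, of which 2 were above background. With untreated levels raised to the background limit, its mean after MFH was 1.32-fold higher. Against the untreated mean itself, MFH replicates 1 to 3 were at 2.85, 1.28 and 1.18 times, so like EGR1 it was highest on MFH replicate 1. EGR3 did not pass the test (limma adjusted p = 0.076), and without MFH replicate 1 it did not pass the filter on low values.

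Feedback inhibitors of MAP kinase signalling changed in both directions, with 2 of 12 tested genes higher, 2 lower and a median log2 change of 0.00. DUSP5, a nuclear phosphatase for ERK, rose 1.44-fold (limma adjusted p = 0.0077), and SPRED2 rose 1.29-fold (limma adjusted p = 0.034). SPRY2 fell 1.55-fold and SPRED1 1.31-fold (limma adjusted p = 0.0058 and 0.023). SPRED2 was not called without MFH replicate 1 (limma adjusted p = 0.091). For DUSP6, SPRY1 and SPRY4 the brightest probe did not pass the test. Called higher were 1 of 2 DUSP6 probes, 1 of 2 tested SPRY1 probes and 2 of 4 SPRY4 probes. The brightest SPRY1 and SPRY4 probes changed in the same direction, by 0.36 and 0.32 (log2, limma adjusted p = 0.058 and 0.061). The brightest DUSP6 probe had a log2 change of -0.01. In limma 0 of 5 genes in the list of factors that act on AU-rich elements passed the test. At an unadjusted limma p under 0.05, 1 was higher and 1 lower, beside 2678 and 3090 of all 23615 tested probes.

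Of upstream kinases and SRF partners, 3 of 16 tested genes fell and 0 rose, and the median log2 change was -0.02. At an unadjusted limma p under 0.05, 1 was higher and 3 were lower, beside 2678 and 3090 of all 23615 tested probes. MAP3K5 (ASK1), a stress-activated kinase upstream of JNK and p38, read 872, 696 and 834 in untreated cells and 555, 384 and 550 after MFH, without overlap. It fell 1.73-fold (limma adjusted p = 2.4e-04). MKL2 and MKL1, coactivators of SRF, fell 1.55-fold and 1.45-fold (limma adjusted p = 0.0038 and 0.0036). MAP2K3, a kinase that activates p38, had a log2 change of 0.31 at its brightest probe (limma adjusted p = 0.13), and 1 of its 4 tested probes was called higher. Without MFH replicate 1 the brightest probe was called too (0.45, limma adjusted p = 0.022).

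Of AP-1 and EGR1 target genes and growth factor ligands, 3 of 14 tested genes rose and 1 fell, with a median log2 change of 0.03. HBEGF, a ligand of the EGF receptor, read 845, 736 and 763 in untreated cells and 2501, 1435 and 1222 after MFH, without overlap. It rose 2.05-fold (log2 change 1.04 ± 0.15 SE, limma adjusted p = 3.7e-04), and by 0.87 on the log2 scale without MFH replicate 1 (limma adjusted p = 0.0018). The collagenase MMP1 rose 1.74-fold (limma adjusted p = 0.022). It was at 1.31, 1.46 and 2.73 times the untreated mean on MFH replicates 1 to 3. The MMP1 call was lost under 4 of 16 alternative fits, among them median scaling and the fit without untreated replicate 3. MMP10 was not well above background on any untreated array and rose at least 1.10-fold (limma adjusted p = 0.012). The filter on low values took the mean of both groups. The MMP10 level was 6.07 in untreated and 6.52 in MFH arrays (log2), so the treated arrays helped it enter the test. It had no result without MFH replicate 3. Of its 15 alternative fits, 2 did not call it, median scaling and the fit without untreated replicate 1. The 3 rises of this list include MMP10 with this limit. CCND1 (cyclin D1) fell 1.35-fold (limma adjusted p = 0.0091). For CD44 the brightest of 3 probes did not pass the test and another was called higher.

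**Figure D4:**
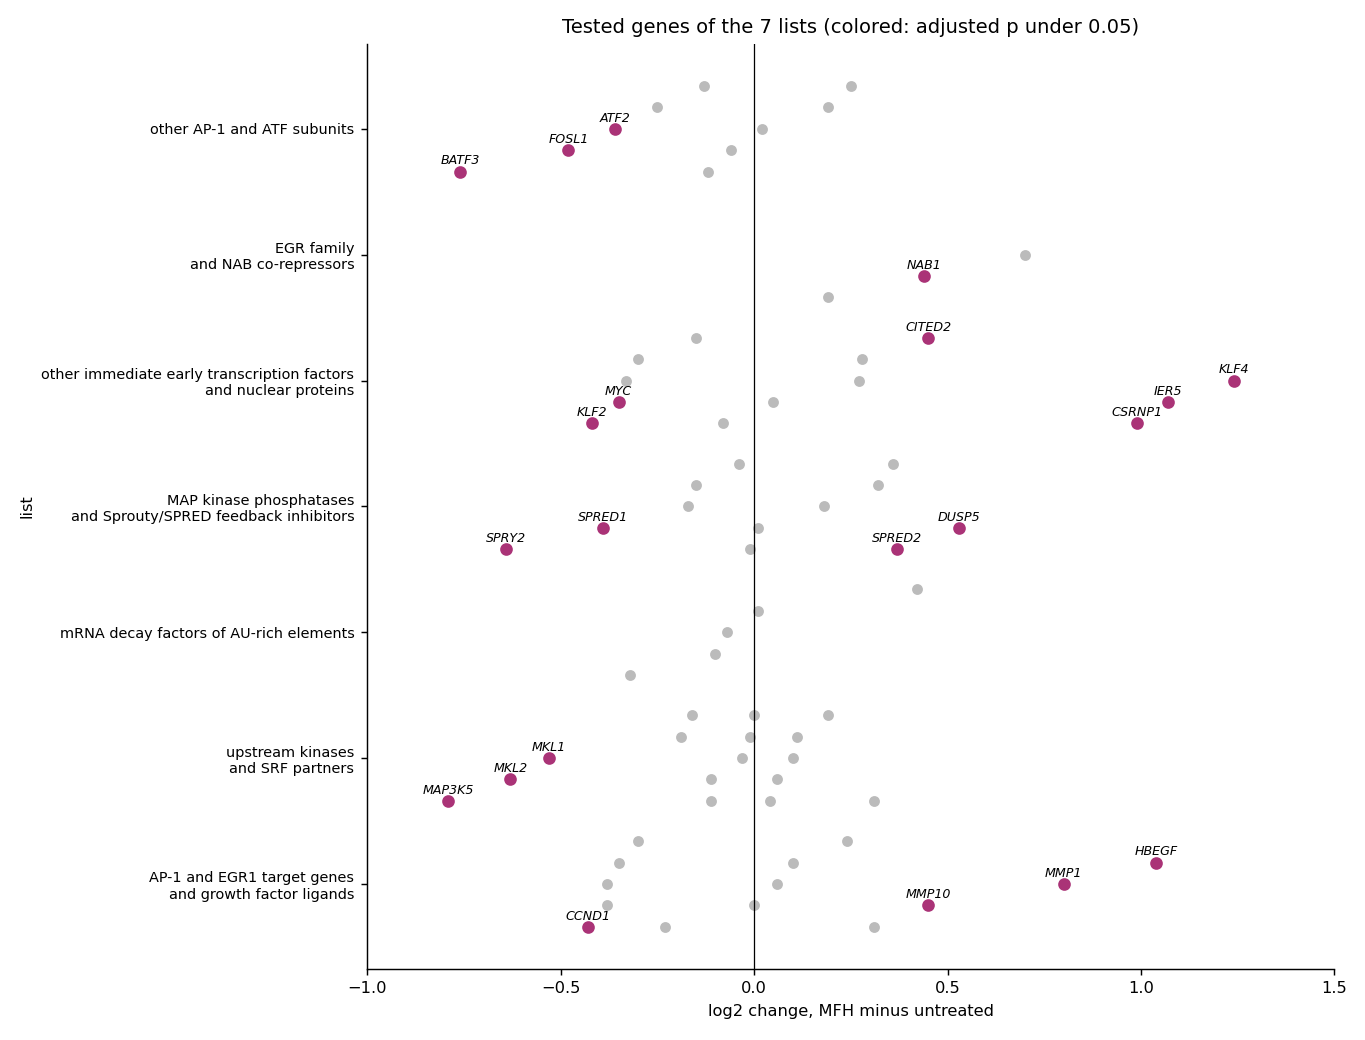
Log2 change (MFH minus untreated) of each tested gene of the 7 lists, by its brightest probe; purple points are named and passed an adjusted p of 0.05 in limma, and grey points did not; height within a list carries no value. KLF4, IER5 and HBEGF lie above 1 on the log2 scale and the largest falls are MAP3K5 and BATF3.

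The genes with the pattern most like a member over the 6 arrays were found by the distance between deviations from the untreated mean (log2) among tested probes of 1 gene. For FOS they were RUNX1, ANKDD1A and PPP2R2C, at distances of 0.26, 0.32 and 0.35. RUNX1 lay 0.57 above its untreated mean on MFH replicate 1, -0.37 from it on replicate 2 and -0.04 on replicate 3, beside 0.65, -0.43 and -0.27 for FOS. For EGR1 they were SLEAR, EVI2A and RNU4-1, at distances of 0.21, 0.26 and 0.30. For ATF3 they were FAM117B, TRIB1 and INO80C, at 0.30, 0.32 and 0.33, and TRIB1 lay 0.96 above its untreated mean on MFH replicate 1 and 0.07 and -0.04 from it on the other MFH arrays. For JUN, which changed little, CHD2, GRAP and UNC119B lay at distances of 0.05, 0.06 and 0.08.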

How the data were processed

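The main deposited table gives, for each probe and array, a linear average bead intensity whose quartiles differ between arrays; the submitters' processing notes name BeadStudio, with a version not given in the sources used here. Columns were matched to samples by name, and 0 columns were left unmatched. A second deposited table holds log2 values with the same median (6.733) on every array, whose making the labels do not describe; it served as an alternative. It was on the scale of log2 raw intensity, not centred by probe, and each column correlated best with its own array. Intensities were corrected with normexp (saddle, offset 50), quantile normalized and put on the log2 scale. The 23615 probes with a mean level above the median were fitted with group as the only term in limma 3.58.1 (R 4.3.3), with moderated variances and Benjamini-Hochberg adjustment over all tested probes (threshold 0.05). The offset draws fold changes of dim probes towards 1. The number of arrays limits the precision; the median moderated SD was 0.13 (log2). The pipeline was also run on simulated intensities with known changes. That run used the same noise setting for all probes, unlike these arrays, and no result here rests on it. Same-numbered arrays' deviations correlated at 0.004, 0.060 and -0.036, and those of other pairs at -0.119 to 0.100. This gave no sign of pairing by replicate number, though so few arrays cannot exclude it. Genes were named from the platform annotation, with symbols updated by Entrez ID: 30113 probes had 1 symbol, 8 had several and 17110 were unnamed here. Named genes were all members, per list up to 4 of the largest rises and 4 of the largest falls among called genes, and for FOS, JUN, EGR1 and ATF3 the 3 probes of the nearest pattern; genes of the 7 lists whose brightest probe was not called while another was, EGR3, HES1 and marker genes were named after their values were seen. The members and lists were chosen with earlier results of these data known. No slide or batch is named in the labels.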

Additional observations from a re-analysis of the deposited data

How the results depend on the processing

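Of the members, KLF6 stayed past the threshold under all 16 alternative fits. Members called lower numbered 2 with median scaling, at an adjusted p under 0.01, and with a change of at least 1.5-fold required, and 2 to 4 when arrays were left out in turn. Members called higher numbered 1 (FOSB) with array weights, without the filter and with the replicate block, and 0 to 1 when arrays were left out; the cause was not tested. With the replicate block in limma, FOSB had an adjusted p of 0.028 at the same log2 change of 0.94. In that fit 4 members were called lower and 2870 probes were called. The arrays gave no sign of the pairing that this block assumes, and could not exclude it. Over the array 2902 probes were called, 1030 with median scaling, 1479 at an adjusted p under 0.01 and 992 with at least 1.5-fold. In the 7 lists, 4 genes rose and 3 fell with median scaling and 7 fell with offset 16; leaving out arrays gave 6 to 12 rises and 7 to 11 falls. This sum over lists was added after seeing the data. Near 0, signs turned: FOS was 0.01 with cyclic loess and 0.00076 with median scaling, and ranged from -0.35 to 0.19 when arrays were left out, EGR1 from -0.079 to 0.38 and DUSP1 from -0.058 to 0.066. The dim ATF3 probe ILMN_1791346 gave -0.17 without the filter. Of the 21 called genes of these lists, 7 kept their call under every alternative fit: BATF3, KLF4, IER5, CSRNP1, MAP3K5, MKL1 and HBEGF. In the heat shock list, HSPD1 was not called at its brightest probe, while 2 of its 3 probes were called higher. Among 25 genes with several tested probes, the mean over probes had the sign of the brightest probe in 20. A slide block was not run, since no slides are named. Signal limits what can be seen: dim probes keep a remnant of background, which draws their changes towards 0.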
